A study of Canis lupus familiaris with 12 samples.

Results

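The CD28 and B7 family comprises the paired receptors and ligands that deliver the second signal to T cells, and 10 of its genes were examined in lymph nodes of dogs with sinonasal cancer. The genes were taken by name from a list of 10 symbols, and all 10 were found among the 780 endogenous genes of a canine immuno-oncology panel. They were divided by role into 4 receptors (CD28, CTLA4, ICOS and PDCD1) and 6 ligands (CD80, CD86, ICOSLG, CD274, PDCD1LG2 and CD276).

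The tumor of every dog received SBRT (stereotactic body radiation therapy), in which beams from many angles deliver a high dose to a small volume, as 3 fractions of 10 Gy. In dogs given elective nodal irradiation (ENI), the submandibular and retropharyngeal nodes of both sides were irradiated too, and these samples are called ENI nodes. In the other dogs the field held the tumor alone, and their samples are called tumor only nodes. Each group held 6 samples from 3 dogs, and the mandibular node was removed after SBRT. Dogs in the ENI group were 7 to 14 years old, against 3 to 9 years in the tumor only group. The ENI group held 2 males and 1 female, against 1 male and 2 females in the tumor only group. Tumors were 1 carcinoma, 1 malignant tumor and 1 sarcoma in the ENI group, against 2 carcinomas and 1 malignant tumor in the tumor only group. Age, sex, tumor type and nodal irradiation therefore cannot be told apart. No node of an untreated dog or from before treatment was measured.

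RNA was measured with NanoString nCounter, in which fluorescent barcodes bound to each transcript are counted without amplification. The labels name lymph node as the tissue, whereas the extraction protocol speaks of tumor tissue. Lymphocyte genes gave strong signals in both groups, with authors' means of 2627 normalized counts in ENI nodes and 4393 in tumor only nodes for the T cell receptor chain CD3E. The B cell gene MS4A1 had 2122 normalized counts in ENI nodes and 1443 in tumor only nodes. Values were used as 1 authors' mean and 1 SD per group, so the values of single samples, and whether the 2 groups overlapped, are not shown here.

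T cells respond to antigen when a second signal accompanies the T cell receptor. CD80 and CD86 on dendritic cells, B cells and macrophages bind CD28, which promotes activation, and CTLA4, which binds the same ligands more tightly and restrains it. ICOS appears on activated T cells, binds ICOSLG on B cells and other presenting cells, and serves follicular helper T cells in germinal centres. PDCD1, known as PD-1, is an inhibitory receptor of activated T cells, with CD274 (PD-L1) and PDCD1LG2 (PD-L2) as its ligands. CD276 (B7-H3) is a B7 relative found on many tissues and tumors, and its receptor is not settled.

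The probes for the receptors targeted transcripts NM_001003087.1 for CD28, NM_001003106.1 for CTLA4, NM_001002972.2 for ICOS and NM_001314097.1 for PDCD1. For the ligands they targeted NM_001003147.1 for CD80, NM_001003146.1 for CD86, XM_014109855.2 for ICOSLG, XM_541302.2 for CD274, XM_847012.5 for PDCD1LG2 and XM_849111.1 for CD276. In a RefSeq annotation of the dog (German Shepherd assembly UU_Cfam_GSD_1.0), 10 of 10 genes were found by symbol and 6 of 10 by the transcript of the probe. There CD28, CTLA4 and ICOS are consecutive protein-coding genes, as are CD274 and PDCD1LG2.

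To ask whether nodal irradiation went with a shift in these receptors and ligands, the groups were compared across the panel with variances moderated by limma. None of the 10 genes passed the threshold, an adjusted p of 0.05 over all 780 genes, at which 28 genes (3.59%) were called. PDCD1 came nearest, at 1.58-fold the tumor only level. All 4 receptors had a log2 ratio of ENI over tumor only above 0, while 3 ligands (CD80, CD274 and PDCD1LG2) were above 0 and 3 (CD86, ICOSLG and CD276) were below. Of the 10 genes 7 were higher and 3 lower in ENI nodes with a median log2 ratio of 0.23, against 352 higher and 428 lower with a median of -0.05 over all genes. At an unadjusted p under 0.05 stood 1 of the 10, PDCD1, against 171 genes (21.9%) of the panel, so the family's share was not above the background. With group values read as arithmetic means, 2 of the 10 were under that p. The panel's share under that reading is not given here, so this count has no background beside it. These tests count the 2 samples of a dog as independent, which makes the p-values too low if samples from 1 dog are alike. In the assumed extreme that both samples of a dog were identical, 0 of 780 genes (0.0%) passed, the smallest adjusted p was 0.203, and 35 genes (4.49%) and 0 of the 10 were under an unadjusted p of 0.05.

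**Figure D1:**
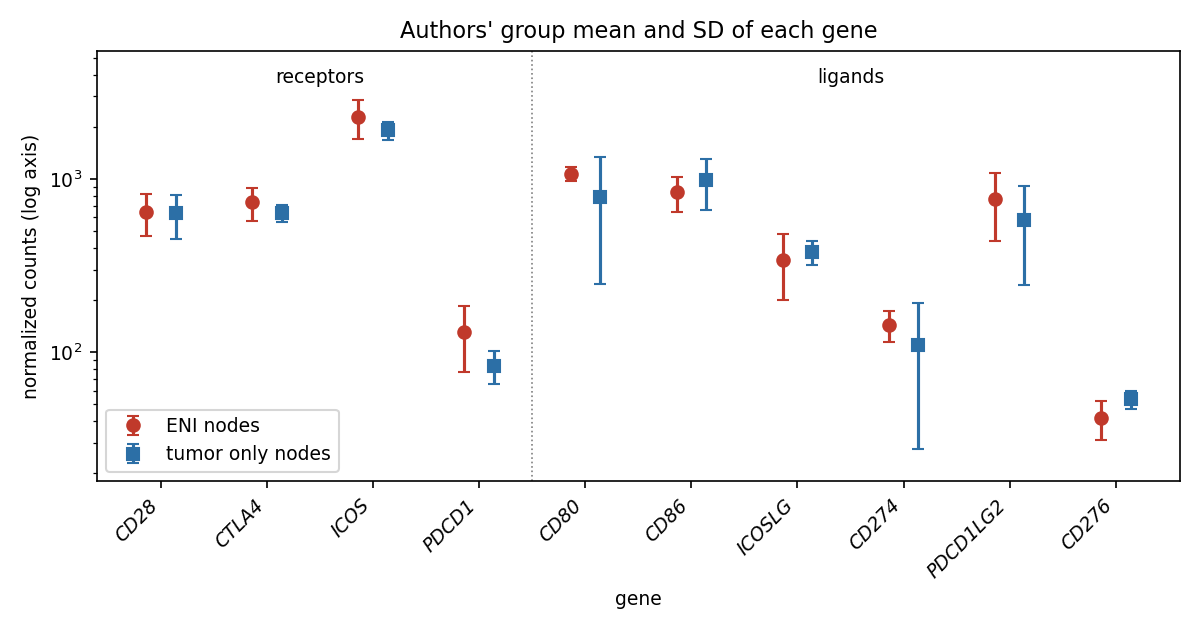
Authors' mean of normalized counts (log axis) for the 4 receptors and 6 ligands in ENI nodes (circles) and tumor only nodes (squares), with bars of 1 SD over the samples of a group. PDCD1 stands at 131 in ENI nodes and 83.2 in tumor only nodes, and the longest bars are those of CD80 and CD274 in tumor only nodes.

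Among the receptors, PDCD1 had the largest ratio. Its authors' mean was 131 normalized counts in ENI nodes (authors' SD 54.6) and 83.2 in tumor only nodes (authors' SD 17.9). The log2 ratio was 0.66 ± 0.25 SE (limma, adjusted p = 0.127), with a 95% interval of 0.14 to 1.17. It ranked 41st of 780 genes from the top by log2 ratio and 100th by p. With both samples of a dog assumed identical, its SE was 0.40 and the interval, with a lower bound of -0.19, included 0.

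ICOS gave the strongest signal of the receptor probes. It had 2289 normalized counts in ENI nodes (authors' SD 585) and 1909 in tumor only nodes (authors' SD 218). Its log2 ratio was 0.26 ± 0.16 SE (limma, adjusted p = 0.432), and the 95% interval of -0.11 to 0.64 left room for a fold between 0.925 and 1.56. The signal of a probe depends on how well it captures its target, so a stronger signal than that of another gene does not mean more transcript.

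CTLA4, the inhibitory counterpart of CD28, had 734 normalized counts in ENI nodes (authors' SD 160) and 639 in tumor only nodes (authors' SD 73.2). Its log2 ratio was 0.20 ± 0.14 SE (limma, adjusted p = 0.525), with a 95% interval of -0.15 to 0.55. CD28 itself was nearly level, at 646 normalized counts in ENI nodes (authors' SD 178) and 633 in tumor only nodes (authors' SD 180). The log2 ratio of CD28 was 0.03 ± 0.22 SE (limma, adjusted p = 0.963). Its 95% interval ran from -0.44 to 0.50, and its upper end corresponded to a 1.41-fold higher level.

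Of the ligands of CD28 and CTLA4, CD80 was higher and CD86 lower in ENI nodes. CD80 had 1073 normalized counts in ENI nodes (authors' SD 105) and 791 in tumor only nodes (authors' SD 544). The log2 ratio of CD80 was 0.44 ± 0.33 SE (limma, adjusted p = 0.435), with a 95% interval of -0.20 to 1.08. It stood at 0.71 (adjusted p = 0.221) when the group values were read as arithmetic rather than geometric means. CD86, the ligand that dendritic cells carry before CD80 during maturation, had 840 normalized counts in ENI nodes (authors' SD 191) and 982 in tumor only nodes (authors' SD 323). Its log2 ratio was -0.23 ± 0.22 SE (limma, adjusted p = 0.593), with a 95% interval of -0.69 to 0.24.

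The ligands of PDCD1 had log2 ratios close to each other. CD274, which interferon gamma induces in many cell types, had 144 normalized counts in ENI nodes (authors' SD 29.2) and 110 in tumor only nodes (authors' SD 82.5). Its log2 ratio was 0.39 ± 0.36 SE (limma, adjusted p = 0.531), and 0.68 (adjusted p = 0.279) with group values read as arithmetic means. PDCD1LG2, the ligand found mainly on dendritic cells and macrophages, had 764 normalized counts in ENI nodes (authors' SD 324) and 578 in tumor only nodes (authors' SD 333). The log2 ratio of PDCD1LG2 was 0.40 ± 0.36 SE (limma, adjusted p = 0.525). Both intervals were wide, -0.31 to 1.08 for CD274 and -0.30 to 1.10 for PDCD1LG2, and a doubling of either gene lay inside them.

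ICOSLG, the ligand of ICOS, had 342 normalized counts in ENI nodes (authors' SD 141) and 377 in tumor only nodes (authors' SD 59.3). Its log2 ratio was -0.14 ± 0.24 SE (limma, adjusted p = 0.781), and -0.24 with group values read as arithmetic means. CD276 gave the weakest signal of the 10 probes, with 41.6 normalized counts in ENI nodes (authors' SD 10.4) and 53.4 in tumor only nodes (authors' SD 6.29). The log2 ratio of CD276 was -0.36 ± 0.16 SE (limma, adjusted p = 0.241), with a 95% interval of -0.73 to 0.01. It was the lowest of the family, and 165 genes of the panel had a lower one.

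**Figure D2:**
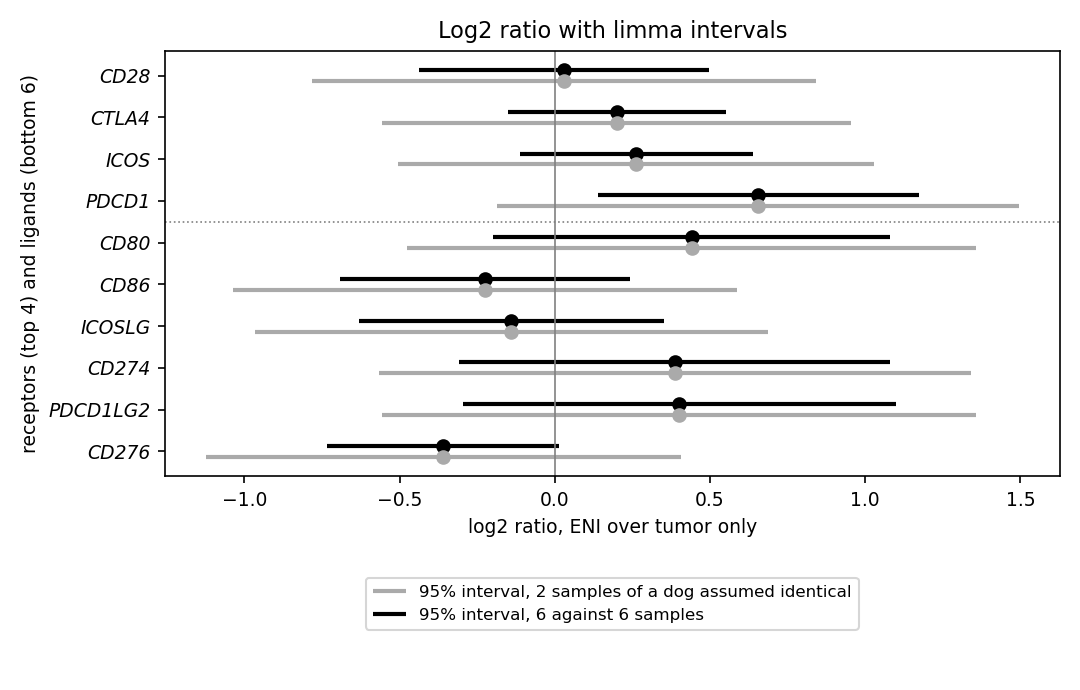
Log2 ratio of ENI over tumor only nodes for each gene (points) with limma's 95% interval over 6 against 6 samples (black) and with both samples of a dog assumed identical (grey). The black interval of PDCD1, 0.14 to 1.17, lies above 0, the other 9 include 0, and all 10 grey intervals include 0.

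Receptors were then set against their ligands. For each pair the ratio of receptor to ligand counts was taken in each group, and because probes differ in capture only its change between groups carries information. ICOS counts per count of ICOSLG were 6.69 in ENI nodes and 5.06 in tumor only nodes, a difference of log2 ratios of 0.40. PDCD1 per CD274 was 0.91 in ENI nodes and 0.755 in tumor only nodes (difference 0.27), and PDCD1 per PDCD1LG2 was 0.172 in ENI nodes and 0.144 in tumor only nodes (difference 0.25). The receptor was the higher of each pair by log2 ratio, but with group values read as arithmetic means the difference was -0.11 for CD274 and 0.09 for PDCD1LG2.

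For CD28 and CTLA4 the sign of the difference depended on the ligand. CD28 per CD80 was 0.602 in ENI nodes and 0.80 in tumor only nodes (difference -0.41), whereas CD28 per CD86 was 0.769 in ENI nodes and 0.645 in tumor only nodes (difference 0.25). CTLA4 per CD80 was 0.684 in ENI nodes and 0.808 in tumor only nodes (difference -0.24), and CTLA4 per CD86 was 0.874 in ENI nodes and 0.651 in tumor only nodes (difference 0.42). Relative to CD80 both receptors were thus lower in ENI nodes, and relative to CD86 both were higher. With group values read as arithmetic means the differences against CD80 were -0.68 for CD28 and -0.54 for CTLA4.

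Within the family, CD80 per CD86 was 1.28 in ENI nodes and 0.806 in tumor only nodes, a difference of 0.67 log2 units and the largest of the 13 computed. PDCD1 per CD28 was 0.203 in ENI nodes and 0.132 in tumor only nodes (difference 0.63). CTLA4 per CD28 (difference 0.17) and ICOS per CD28 (difference 0.23) had smaller differences of the same sign. CD274 and CD80, which also bind each other on the same cell, had nearly equal log2 ratios (difference -0.05), as did CD274 and PDCD1LG2 (difference -0.01, and 0.19 with group values read as arithmetic means).

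The errors of these differences depend on how the 2 genes vary together across samples, which group values do not show. Over 6 against 6 samples, the SE for uncorrelated genes was 0.40 for CD80 against CD86 and 0.34 for PDCD1 against CD28. For opposite variation it was at most 0.55 and 0.47. With both samples of a dog assumed identical, this bound was wider, at 0.87 for CD80 against CD86 and 0.75 for PDCD1 against CD28. Over 6 against 6 samples, none of the 13 differences exceeded 2 SE for uncorrelated or oppositely varying genes. With the SE taken at its floor, the plain difference of the 2 genes' SEs, 11 exceeded 2 SE. Genes that vary fully together need not reach that floor. The errors are thus not settled by these values, and none of the differences was tested.

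**Figure D3:**
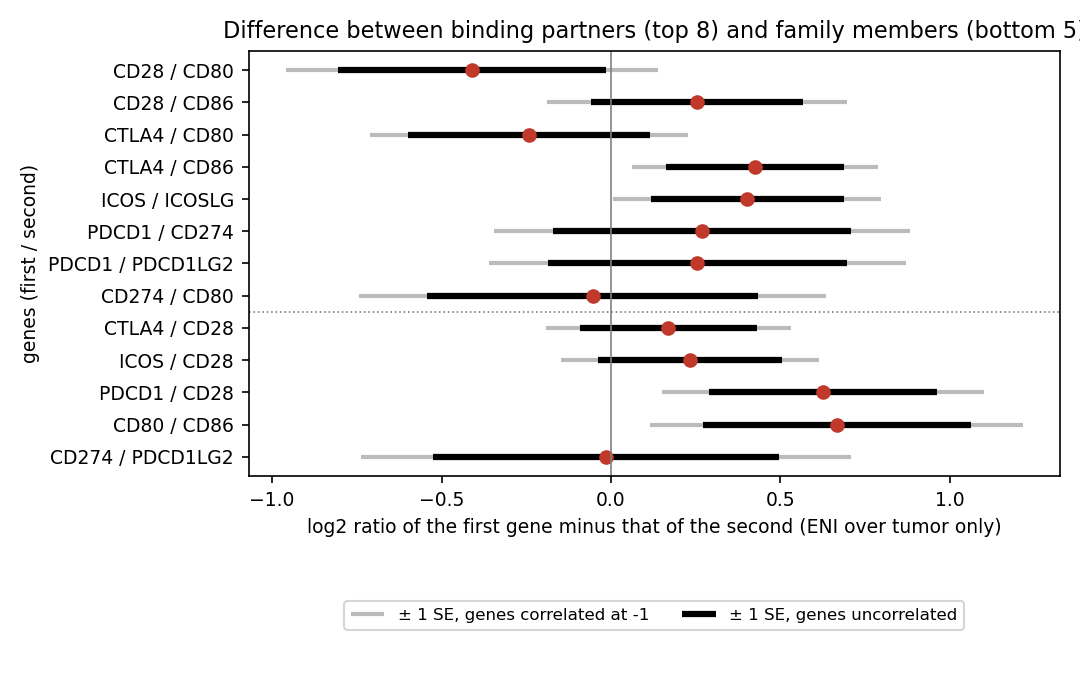
Difference between the log2 ratios (ENI over tumor only) of the first and second gene for 8 binding partners and 5 pairs within the family. Bars show 1 SE over 6 against 6 samples for uncorrelated genes (black) and the upper bound of that SE for genes varying oppositely (grey). CD80 against CD86, at 0.67, and PDCD1 against CD28, at 0.63, lie farthest to the right, and CD28 against CD80, at -0.41, farthest to the left.

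The spread between samples was then compared. Expressed as SD in percent of the authors' mean, CD80 varied by 9.75% in ENI nodes and 68.8% in tumor only nodes, a 7.06-fold larger spread in tumor only nodes that ranked 12th of 780 genes. With the authors' means read as geometric, such a percentage exceeds the SD over an arithmetic mean, and more so where the spread is larger. CD274 varied by 20.3% in ENI nodes and 74.8% in tumor only nodes, 3.69-fold more in the tumor only group. PDCD1LG2 (42.5% in ENI nodes, 57.6% in tumor only nodes) and CD86 (22.7% in ENI nodes, 32.9% in tumor only nodes) leaned the same way. Over the panel the SD percent was larger in tumor only nodes for 510 genes (65.4%), with medians of 22.9% in ENI nodes and 32.2% in tumor only nodes.

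Other members were more variable in ENI nodes. PDCD1 varied by 41.7% in ENI nodes and 21.6% in tumor only nodes, ICOS by 25.6% in ENI nodes and 11.4% in tumor only nodes, and CTLA4 by 21.8% in ENI nodes and 11.5% in tumor only nodes. ICOSLG (41.2% in ENI nodes, 15.7% in tumor only nodes) and CD276 (25.0% in ENI nodes, 11.8% in tumor only nodes) did the same, and CD28 was even, at 27.6% in ENI nodes and 28.4% in tumor only nodes. Of the 10 genes 5 thus had the larger relative spread in ENI nodes and 5 in tumor only nodes, and 3 of 4 receptors were among the first 5. These spreads mix variation between dogs with variation between the 2 samples of a dog, and no test was made of them.

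**Figure D4:**
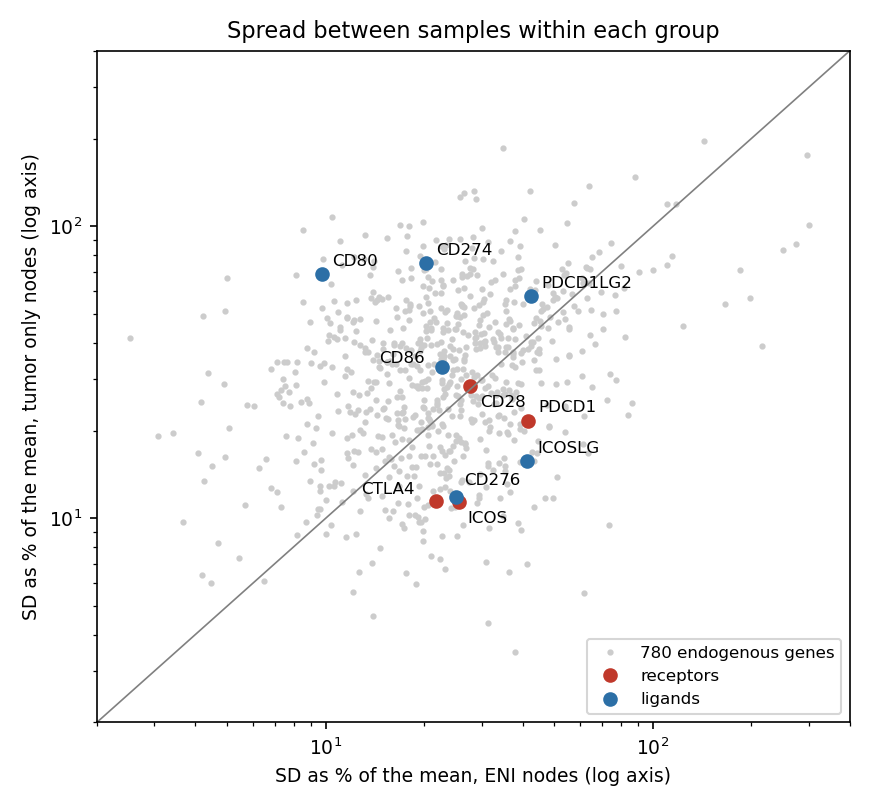
SD over samples in percent of the authors' mean in ENI nodes (horizontal) and tumor only nodes (vertical), both on log axes, for 780 genes (grey), receptors (red) and ligands (blue); the line marks equal spread. CD80, at 9.75% in ENI nodes and 68.8% in tumor only nodes, and CD274 lie far above the line, and PDCD1, ICOS, CTLA4, ICOSLG and CD276 below it.

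In bulk tissue fewer cells of a type and less RNA per cell cannot be told apart, so the members were set beside genes of the cells that carry them. All 4 T cell receptor chains were lower in ENI nodes with a median log2 ratio of -0.25, none past the threshold and 1 at an unadjusted p under 0.05. Over the panel 428 of 780 genes were lower and 21.9% were under that p. CD3E was at -0.74 ± 0.33 SE (adjusted p = 0.161), CD247 at -0.25 ± 0.17 SE (adjusted p = 0.451) and CD3D at -0.25 ± 0.17 SE (adjusted p = 0.46). CD3G was nearly level, at -0.03 ± 0.29 SE (adjusted p = 0.963). Their summed signal was 5902 normalized counts in ENI nodes and 8056 in tumor only nodes. The largest part came from CD3E, with 2627 in ENI nodes and 4393 in tumor only nodes. Of 8 other T cell genes 6 were lower and 2 higher, again with none called, led by the co-receptor chain CD8A at -1.41 ± 0.43 SE (adjusted p = 0.0519), CD8B at -1.42 ± 0.51 SE (adjusted p = 0.0797) and the kinase LCK at -0.66 ± 0.31 SE (adjusted p = 0.19). The helper co-receptor CD4 was at 0.05 ± 0.15 SE. The part of these markers in the receptors' values was not tested.

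Against the median of the T cell receptor chains, every receptor was higher in ENI nodes. The difference in log2 ratio was 0.91 for PDCD1, 0.51 for ICOS, 0.45 for CTLA4 and 0.28 for CD28. Since the chains served as a common subtrahend, this adds the same 0.25 to each receptor and leaves their order unchanged.

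Follicular helper and germinal centre genes, which include the usual companions of ICOS and PDCD1, were divided. Of 7 measured 4 were higher and 3 lower (median 0.08, none called). The B cell chemokine CXCL13 was at 0.85 ± 0.43 SE (adjusted p = 0.208) and the follicular transcription factor BCL6 at -0.18 ± 0.11 SE (adjusted p = 0.525). Their summed signal, most of it CXCL13, was 18812 normalized counts in ENI nodes and 10944 in tumor only nodes. Of 4 regulatory T cell genes, markers of the cells richest in CTLA4, 2 were higher and 2 lower with none called. FOXP3, their defining factor, was at -0.37 ± 0.22 SE (adjusted p = 0.353), as against 0.20 for CTLA4. The interleukin 2 receptor chain IL2RA was at -0.35 ± 0.30 SE (adjusted p = 0.518) and the co-stimulatory receptor TNFRSF4 at 0.39 ± 0.23 SE (adjusted p = 0.353).

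Genes of the cells that carry the ligands differed in sign. Of 8 B cell genes 7 had higher values in ENI nodes (median 0.28, none called), with MS4A1 at 0.56 ± 0.28 SE (adjusted p = 0.228) and CD22 at 0.53 ± 0.37 SE (adjusted p = 0.393). All 7 dendritic cell genes were lower with a median of -0.32 and none called, among them CD1C at -0.43 ± 0.19 SE (adjusted p = 0.22), the chemokine receptor XCR1 at -0.32 ± 0.13 SE (adjusted p = 0.241) and CCR7 at -0.51 ± 0.42 SE (adjusted p = 0.453). Of 6 macrophage genes 4 were lower with a median of -0.23 and none called, with the growth factor receptor CSF1R at -0.73 ± 0.33 SE (adjusted p = 0.172), CD68 at -0.41 ± 0.19 SE (adjusted p = 0.241) and CD14 at -0.33 ± 0.23 SE (adjusted p = 0.435). All 3 plasma cell genes were higher (median 0.80, none called), with PRDM1 at 0.80 ± 0.33 SE (adjusted p = 0.131), TNFRSF17 at 1.46 ± 0.75 SE (adjusted p = 0.202) and IRF4 at 0.48 ± 0.36 SE (adjusted p = 0.435). The SD of TNFRSF17 was 144% of the authors' mean in ENI nodes and 196% in tumor only nodes. PRDM1 gave a weak signal, at 63.3 normalized counts in ENI nodes and 36.3 in tumor only nodes. By sign the ligands matched some of these medians and not others. CD86 was below 0, like the dendritic cell and macrophage medians and unlike the B cell median. CD80 was above 0, like the B cell median and unlike the dendritic cell and macrophage medians. PDCD1LG2 was above 0 while the dendritic cell and macrophage medians were below it. ICOSLG was below 0 while the B cell median was above it. Summed signals were 11676 normalized counts in ENI nodes and 10194 in tumor only nodes for B cell genes, 4910 in ENI nodes and 5833 in tumor only nodes for dendritic cell genes, and 2236 in ENI nodes and 3071 in tumor only nodes for macrophage genes. Their part in the ligands' values was not tested.

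The spread of the B cell genes was larger in tumor only nodes for 7 of 8, as it was for CD80, CD274 and 510 genes (65.4%) of the panel. CD22 varied by 19.5% in ENI nodes and 79.4% in tumor only nodes. Dendritic cell genes were divided, with a larger spread in tumor only nodes for 4 of 7. Macrophage genes went the other way, with a larger spread in tumor only nodes for 1 of 6. The part of these cells in the spread of CD80 and CD274 was not tested.

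Among stromal and vessel genes, cells on which CD276 is found, 5 of 7 were lower and 2 higher, and 3 passed the threshold, all of them lower (3.59% of the panel was called). PDGFRA, a growth factor receptor of mesenchymal cells, fell by 1.67 on the log2 scale (± 0.16 SE, limma, adjusted p = 7.57e-05) to 126 normalized counts in ENI nodes, against 402 in tumor only nodes. The endothelial cadherin CDH5 (-1.14 ± 0.16 SE, adjusted p = 0.00209) and PDGFRB (-0.92 ± 0.16 SE, adjusted p = 0.012) fell as well. The collagens COL1A1 (0.24 ± 0.37 SE, adjusted p = 0.739) and COL3A1 (0.03 ± 0.30 SE, adjusted p = 0.963) were the 2 above 0. The list had a median of -0.74, and CD276 was at -0.36. Of 4 epithelial genes KRT18, a keratin of simple epithelia, rose by 1.09 on the log2 scale (± 0.24 SE, adjusted p = 0.0215), while CDH1 was at -0.48 ± 0.14 SE (adjusted p = 0.109) and EPCAM at 0.42 ± 0.21 SE (adjusted p = 0.246). None of these calls held with both samples of a dog assumed identical, and the part of these cells in the CD276 value was not tested.

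Other genes of the same pathways gave few calls. Of 5 further B7 relatives and partners 3 were higher and 2 lower with none called. VSIR, an inhibitory B7 relative, was at -0.62 ± 0.16 SE (adjusted p = 0.0622), the inhibitory receptor BTLA at 0.86 ± 0.31 SE (adjusted p = 0.0973), and its partner TNFRSF14 at 0.24 ± 0.14 SE (adjusted p = 0.437). Of 8 other inhibitory receptors and their ligands 1 passed, against 28 genes (3.59%) of the panel. It was CD96, a receptor of T cells and natural killer cells, which fell by 0.93 on the log2 scale (± 0.20 SE, adjusted p = 0.0227). CD244 was at -0.27 ± 0.12 SE (adjusted p = 0.332), and TIGIT at -0.26 ± 0.12 SE (adjusted p = 0.353). Of the 8 genes 5 were lower and 3 higher with a median of -0.22, and the highest, KLRG1 at 0.30 ± 0.25 SE (adjusted p = 0.501), lay between CTLA4 and PDCD1. The call of CD96 was lost with both samples of a dog assumed identical (adjusted p = 0.883).

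Of 9 co-stimulatory genes of the tumor necrosis factor family 5 were higher and 4 lower (median 0.05, none called). CD40, which signals in B cells and dendritic cells, was at 0.64 ± 0.24 SE (adjusted p = 0.127). TNFRSF9 was at -0.47 ± 0.19 SE (adjusted p = 0.178) and CD27 at -0.58 ± 0.30 SE (adjusted p = 0.241). CD40 had 1185 normalized counts in ENI nodes (authors' SD 131) and 762 in tumor only nodes (authors' SD 344).

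Genes listed with signalling through the receptors gave no call. Of 19 measured genes downstream of CD28 and ICOS 17 were lower and 2 higher, with a median of -0.33, none called and 5 at an unadjusted p under 0.05. Over the panel 428 of 780 genes were lower and 21.9% were under that p. By p the genes downstream of CD28 and ICOS were led by the transcription factor RELA at -0.46 ± 0.11 SE (adjusted p = 0.0825) and the kinase MTOR at -0.46 ± 0.12 SE (adjusted p = 0.094). IL2, the cytokine that co-stimulation through CD28 sustains, had 315 normalized counts in ENI nodes and 340 in tumor only nodes (-0.11 ± 0.16 SE, adjusted p = 0.764). Of 5 measured genes listed with PDCD1 and CTLA4 signalling 4 were lower with none called. All 5 are transcription factors, and whether they act before or after these receptors is not shown here. The listed phosphatase genes PTPN11, PTPN6, PPP2CA and PPP2R1A were not measured. EOMES (-0.72 ± 0.28 SE, adjusted p = 0.122) and TOX (-0.52 ± 0.29 SE, adjusted p = 0.276) had the smallest p. TBX21 (0.24 ± 0.16 SE, adjusted p = 0.47) was the 1 gene above 0. Many of these genes act in other cells and pathways too.

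The route from interferon gamma to CD274 was mixed. Of 9 measured genes 6 were higher and 3 lower (median 0.22, none called). The kinase JAK1 was at -0.61 ± 0.20 SE (adjusted p = 0.0931), the induced chemokine CXCL10 at 0.56 ± 0.38 SE (adjusted p = 0.362) and the transcription factor IRF1 at 0.29 ± 0.17 SE (adjusted p = 0.391). IFNG itself gave a weak signal, at 48.5 normalized counts in ENI nodes (authors' SD 23.2) and 40.3 in tumor only nodes (authors' SD 25.4), or 0.27 ± 0.39 SE as log2 ratio (adjusted p = 0.714).

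**Figure D5:**
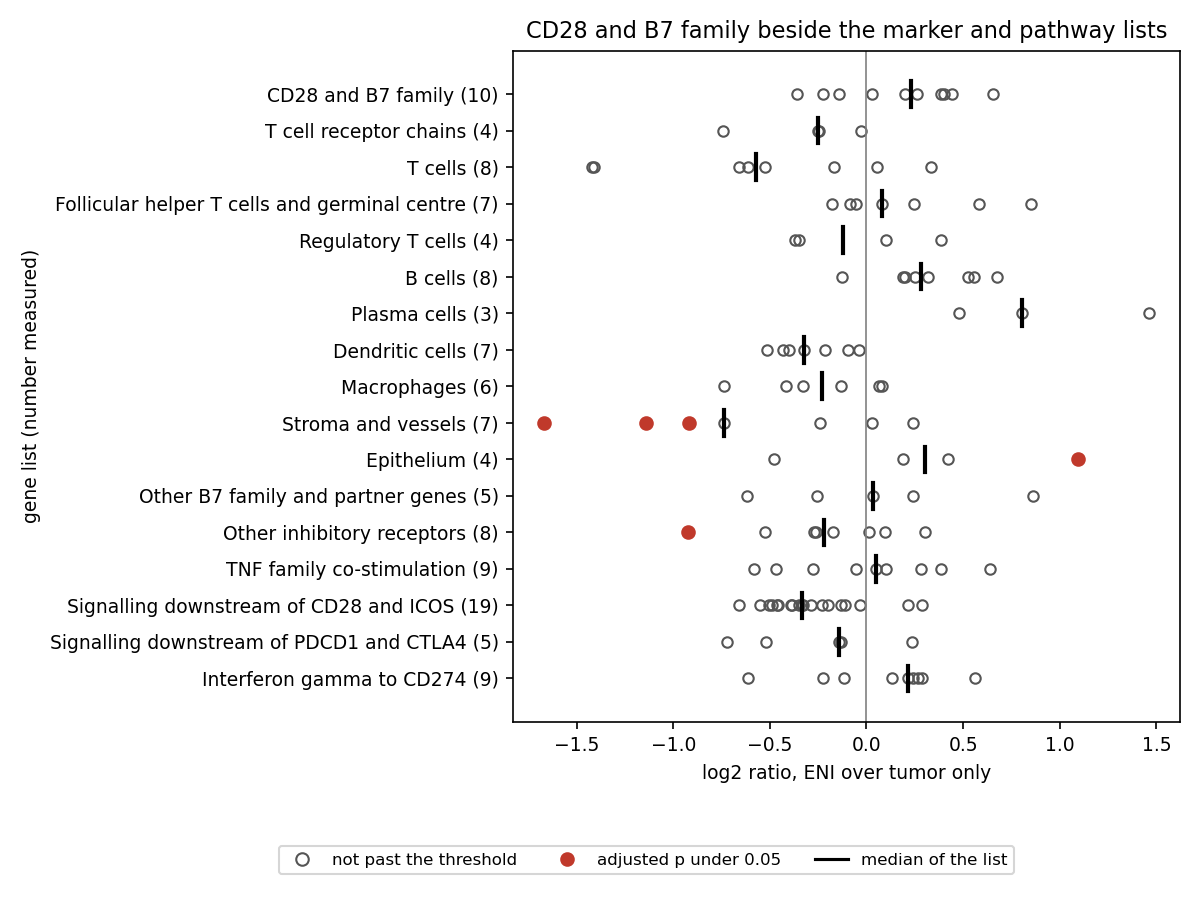
Log2 ratio of ENI over tumor only nodes for the 10 genes of the CD28 and B7 family and for each gene of 16 marker and pathway lists, with the number measured in brackets, the median of each list (bar) and genes past the adjusted threshold filled. The family lies around a median of 0.23 with no filled point, B cell genes lie mainly to the right, and dendritic cell genes and those downstream of CD28 and ICOS mainly to the left.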

How the data were processed

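RNA from 12 lymph node samples of 6 dogs was hybridised to the NanoString canine immuno-oncology panel of 800 probes, 780 for endogenous and 20 for housekeeping genes. The authors normalized the signal of each probe in nSolver and deposited it as normalized counts, 1 value per group, with the SD over the group's samples. The nSolver version, background setting and kind of mean were not given in the sources used here. Group values were read as geometric means. Housekeeping genes had a mean log2 ratio of -2.62e-05, so the values had been scaled to them. Geometric means of values scaled this way give a mean log2 ratio this small, whereas arithmetic means need not. The depth of single samples is unknown. The table's fold changes, limits, p-values and adjusted p-values, which are the authors' own comparison, were not used.

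The log2-scale variance of each group was recovered from mean and SD assuming lognormal values. Variances were moderated across the 780 endogenous genes with limma 3.58.1 (squeezeVar, R 4.3.3; 10 residual and 4.09 prior degrees of freedom), tests were two-sided, and the Benjamini-Hochberg adjusted p had to be under 0.05. The SE in the text comes from the SDs before moderation, and the 95% intervals and adjusted p-values from the moderated fit. In an alternative both samples of a dog were assumed identical, which leaves 3 against 3 dogs. Other alternatives changed the moderation, the reading of mean and SD, the centring, a minimum level (20 normalized counts), a pseudocount (10 normalized counts) and the adjustment. The fit was tested on simulated data. Members and lists were chosen with earlier results of these data known. All members are named, and from each list its defining markers, the genes past the threshold and up to 3 genes with the smallest p, except some list genes that are not reported here. Figures used Python 3.11.15 with matplotlib 3.10.9.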

Additional observations from a re-analysis of the deposited data

How the results depend on the processing

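The number of the 10 genes past the threshold was 0 under all 12 alternatives, and all 10 kept the sign of their log2 ratio. PDCD1 ranged from 0.57 to 0.70 with an adjusted p from 0.113 to 0.999. Against 28 genes called over the panel, 16 were called when SD divided by mean was taken as the log-scale spread, 7 by Benjamini-Yekutieli adjustment, and 0 with the samples of a dog assumed identical, with moderated or, in a setting chosen after seeing the data, unmoderated variances. These follow from the larger errors, the stricter adjustment and the counting of each dog as 1 sample. Read as arithmetic means, group values turned the difference between PDCD1 and CD274 to -0.11 and that between CD274 and PDCD1LG2 to 0.19, since that reading lowers a group more the larger its SD. The other 44 differences tried kept their sign. Leaving out a sample or dog was not run, as single-sample values were not used. No paired analysis was possible because each dog belonged to 1 group. CD276, at 41.6 normalized counts in ENI nodes and 53.4 in tumor only nodes, is nearest to background.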

Other observations

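The contrast in spread seen for CD80 and CD274 was shared by other genes, which were singled out after their values were seen. CD47, a ligand that restrains phagocytosis, varied by 9.85% of its mean in ENI nodes and 77.5% in tumor only nodes, the plasma cell and activation enzyme CD38 by 2.52% in ENI nodes and 41.4% in tumor only nodes, and the B cell transcription factor MEF2C by 10.5% in ENI nodes and 108% in tumor only nodes. The MHC class I light chain B2M varied by 11.2% in ENI nodes and 74.0% in tumor only nodes and followed CD80 directly in the order of this contrast. At the opposite end stood the T zone chemokine CCL19, with 61.8% in ENI nodes and 5.54% in tumor only nodes, and APOE, with 37.9% in ENI nodes and 3.48% in tumor only nodes. Authors' means of CCL19 were close, at 2013 normalized counts in ENI nodes and 1990 in tumor only nodes. The source of these spreads was not tested.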
